A study of Mus musculus with 6 samples.

Results

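The growth factor signalling genes described here are 49 ligands, receptors and feedback genes of the FGF, PDGF, EGF, HGF and KIT ligand families. They were taken from a written list, matched by symbol to the RefSeq transcripts of the deposited RNA-Seq table, and make up 49 of the 25043 genes in it. Where a gene had several transcripts, the one with the most normalized counts stands for it. RNA was sequenced from primary mouse embryonic fibroblasts (MEFs), mesenchymal cells cultured from dissociated embryos, with 3 libraries of wild type (WT) MEFs and 3 of *Anp32e* null MEFs. *Anp32e* encodes a histone chaperone that removes the histone variant H2A.Z from chromatin. All 6 libraries came from cells kept in DMEM with 10% fetal bovine serum and antibiotics at a passage number below 8. RNA was isolated 1 day after about 200000 cells had been put on each 10 cm plate. The null MEFs came from *Anp32e*-/- embryos and the WT MEFs from WT embryos. The study describes its replicates in cell culture as biological, but the number of embryos behind each group is not given in the sources used here.

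Fibroblast growth factors, platelet-derived growth factors, the EGF-like ligands, hepatocyte growth factor and KIT ligand are secreted or membrane-held proteins. They bind receptor tyrosine kinases, which phosphorylate themselves and pass the signal through RAS to the MAP kinases ERK1 and ERK2 and through PI3K to AKT. ERK activity in turn raises the transcription of its own inhibitors, among them the Sprouty proteins and the dual-specificity phosphatases, and of ETS factors of the PEA3 group. Fibroblasts in culture depend on this signalling for growth, and PDGF receptors are classic markers of mesenchyme.

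The table gives for each transcript the mean normalized count over all 6 libraries, which is the authors' mean. Its other columns hold the authors' own comparison of the genotypes and were not used here, so a level below belongs to WT and *Anp32e* null MEFs together and no difference between them was tested. *Anp32e* itself had a mean of 2190 normalized counts, a value that cannot check the labels because it is not split by genotype. Of the 12 fibroblast and mesenchyme markers listed for a check of the label, 11 had a mean of at least 10, led by *Vim* with 330695 normalized counts, while *Lum* had 1.33. *Dcn* reached 10 with 144 normalized counts, below the median of 350 of genes with reads. This minimum is low, as 56.9% of all genes and 73.9% of genes with reads reached it. Of the markers of other cell types, 6 of 8 epithelial, 2 of 6 endothelial, 2 of 6 blood, 1 of 5 neural crest and 2 of 6 skeletal muscle genes reached 10. Epithelial *Esrp1*, endothelial *Emcn*, neural crest *Foxd3* and muscle *Myod1* and *Myf5* were listed at 0. However, the keratins *Krt19* and *Krt18* had 7400 and 1106 normalized counts, the VEGF receptor *Kdr* 2958 and the skeletal actin *Acta1* 4711. Their part in the levels below was not tested. Division by the size factor of a library makes libraries comparable, and the 6 factors lay between 0.909 and 1.13. Intervals are 95% exact Poisson intervals of the reads behind a mean, which cover counting error only and say nothing of the spread between cultures. In a bulk sample, fewer cells that express a gene and less of its RNA per cell cannot be told apart.

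Promoter sequences of 4 members are shown because they stand at both ends of the range of levels. *Met* and *Dusp6* were among the most abundant members, whereas *Hgf*, the ligand of *Met*, and *Fgf21* were far lower. These 4 were picked after the values were seen. *Fgfr2* and *Fgfr4* were picked first and replaced, because the start of their listed window was not found in a GENCODE transcript of the gene. Each run gives the 250 bases before the start that the RefSeq promoter table lists for the gene in GRCm38.p6, 5′ to 3′ on the strand of the gene, with CpG dinucleotides in capitals. The *Met* window is chr6:17463707-17463956 on the plus strand, the *Hgf* window chr5:16553245-16553494 on the plus strand, the *Dusp6* window chr10:99262981-99263230 on the plus strand and the *Fgf21* window chr7:45615491-45615740 on the minus strand. The *Met* window lies inside the interval that RefSeq gives for the gene, which begins at 17463349, whereas each of the other 3 runs ends at the base just before its gene.
*Met*: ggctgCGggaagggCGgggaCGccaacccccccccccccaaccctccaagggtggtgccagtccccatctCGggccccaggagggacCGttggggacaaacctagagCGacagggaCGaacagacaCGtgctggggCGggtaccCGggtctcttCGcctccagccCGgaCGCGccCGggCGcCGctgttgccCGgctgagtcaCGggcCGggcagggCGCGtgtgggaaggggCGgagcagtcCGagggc
*Hgf*: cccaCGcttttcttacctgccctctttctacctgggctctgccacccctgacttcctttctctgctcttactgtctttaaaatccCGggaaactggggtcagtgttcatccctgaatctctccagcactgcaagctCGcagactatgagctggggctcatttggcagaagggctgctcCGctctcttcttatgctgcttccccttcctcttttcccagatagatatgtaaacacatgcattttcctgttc
*Dusp6*: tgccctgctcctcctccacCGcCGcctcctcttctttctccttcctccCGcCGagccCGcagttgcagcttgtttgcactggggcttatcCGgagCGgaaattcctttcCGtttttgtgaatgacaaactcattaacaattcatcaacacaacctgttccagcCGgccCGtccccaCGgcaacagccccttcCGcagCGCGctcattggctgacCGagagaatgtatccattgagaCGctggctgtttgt
*Fgf21*: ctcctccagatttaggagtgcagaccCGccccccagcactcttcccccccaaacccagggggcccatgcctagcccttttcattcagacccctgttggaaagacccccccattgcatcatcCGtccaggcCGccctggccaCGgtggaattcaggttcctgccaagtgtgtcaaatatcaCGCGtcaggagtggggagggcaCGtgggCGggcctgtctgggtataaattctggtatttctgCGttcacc

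The *Met* run holds 24 CpG dinucleotides and the *Dusp6* run 16, against 4 for *Hgf* and 9 for *Fgf21*. Windows of 300 bases, which add 50 bases after the start, were available for 36 members. The 13 members without a window included *Hbegf* and *Etv4*, which led the members per kb, and *Fgf1*, the lowest. Among the 36, the first bases after the start were found in a GENCODE transcript of the gene for 25, the 4 printed ones included. They were not found for 11, *Fgfr2* and *Fgfr4* among them. Across the 31 members with a mean of at least 10, the median was 21 CpG per window, the same as over the 11131 such genes in the table. The 5 members below 10 had a median of 17, while the 7524 genes below 10 had a median of 3. *Kit* and *Fgfr4* each had 20 CpG in their windows and almost no reads. For *Kit*, whose listed start was found in a transcript, a CpG-rich promoter thus stood beside a level near 0. *Fgfr2*, at 4819 normalized counts, had 4 CpG in its listed window. As the listed starts of *Fgfr2* and *Fgfr4* were not found in a transcript, their windows may not be those of the transcripts counted. The GC box GGGCGG, a sequence that SP1 can bind, was searched on both strands. It occurred in 20 of the 36 windows of members (55.6%) and in 45.9% of all 18655 windows. Among genes with a mean of at least 10 the order was turned, with 17 of 31 windows of members (54.8%) and 64.3% of the windows of all such genes. Among genes below 10 it was not turned, with 3 of 5 windows of members and 18.6% of the windows of all such genes. Levels within each of these sets were not matched. A match of letters is a description and does not show binding.

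**Figure D1:**
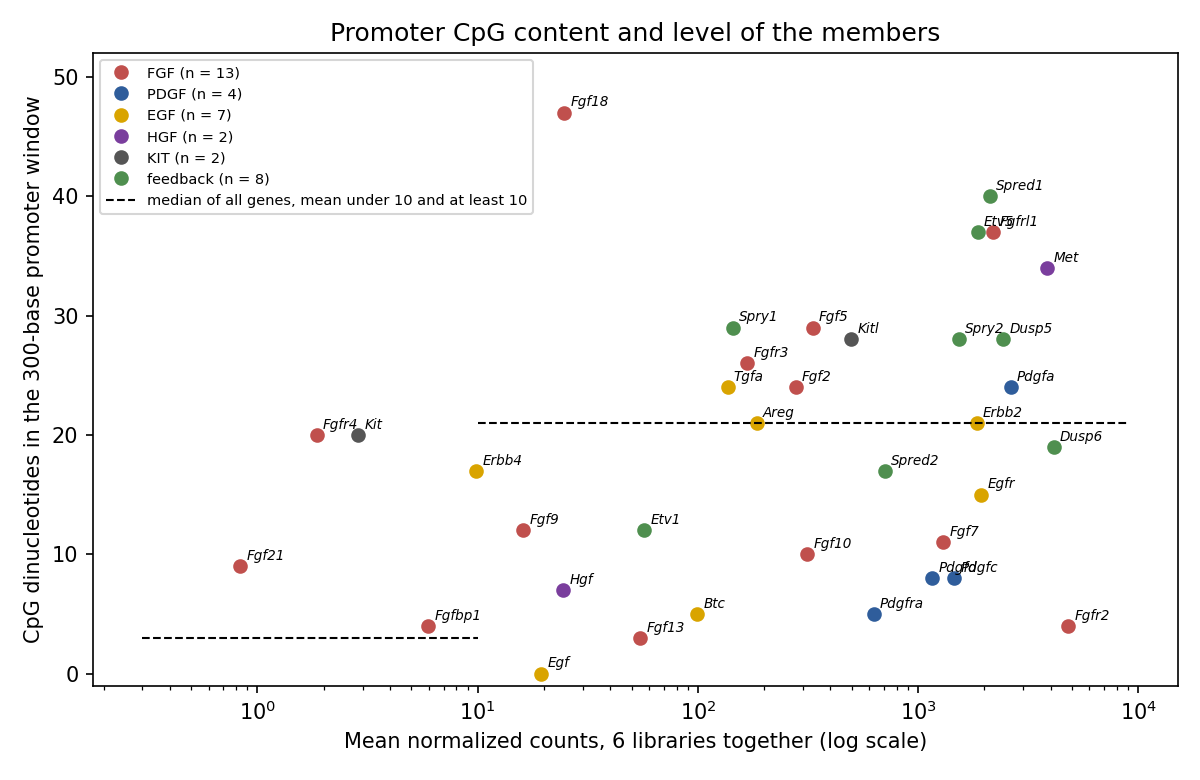
Number of CpG dinucleotides in the 300-base promoter window (vertical axis) against the mean normalized count over the 6 libraries (horizontal axis, log scale) for the 36 members with a window, coloured by family. Dashed lines are the medians of all genes, 3 for those with a mean under 10 and 21 for the others. *Kit* and *Fgfr4* sit high on the left, and *Fgfr2*, with 4, low on the right. The listed starts of *Fgfr4* and *Fgfr2* were not found in a GENCODE transcript of the gene.

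Among the 49 members, 42 had a mean of at least 10 normalized counts, and 20 had at least 1000. In the whole table, 56.9% of genes reached 10 and 28.8% reached 1000. All 49 members had reads, and of the genes with reads 73.9% reached 10. The 7 members below 10 were *Fgf1*, *Fgf21*, *Fgfr4*, *Kit*, *Fgfbp1*, *Fgf16* and *Erbb4*. *Erbb4* was close to this minimum, and its mean, 9.87, was 11.7 with library A left out. To compare genes, means were divided by the transcript length in GENCODE, giving normalized counts per kb. By this measure the members had a median of 133 normalized counts per kb, and the 18746 genes with reads and a known length had a median of 145. Of the members, 23 lay above this gene median and 9 above the 75th percentile of genes. The order of the leading members per kb was *Hbegf*, *Etv4*, *Dusp6*, *Fgfr2* and *Pdgfa*. The counting intervals of *Dusp6* and *Fgfr2*, 1456 to 1495 and 1433 to 1468 normalized counts per kb, overlap, so they cannot be ordered within counting error. Levels per kb depend on the length used. With the longest transcript of each gene, *Fgfr2* had 1063 per kb and came after *Pdgfa*, at 1275. With the coding length in place of the whole transcript, the leading members were *Hbegf*, *Pdgfa*, *Dusp6*, *Ereg* and *Pdgfb*. The counts divided by the coding length here and below are still those of the whole transcript.

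**Figure D2:**
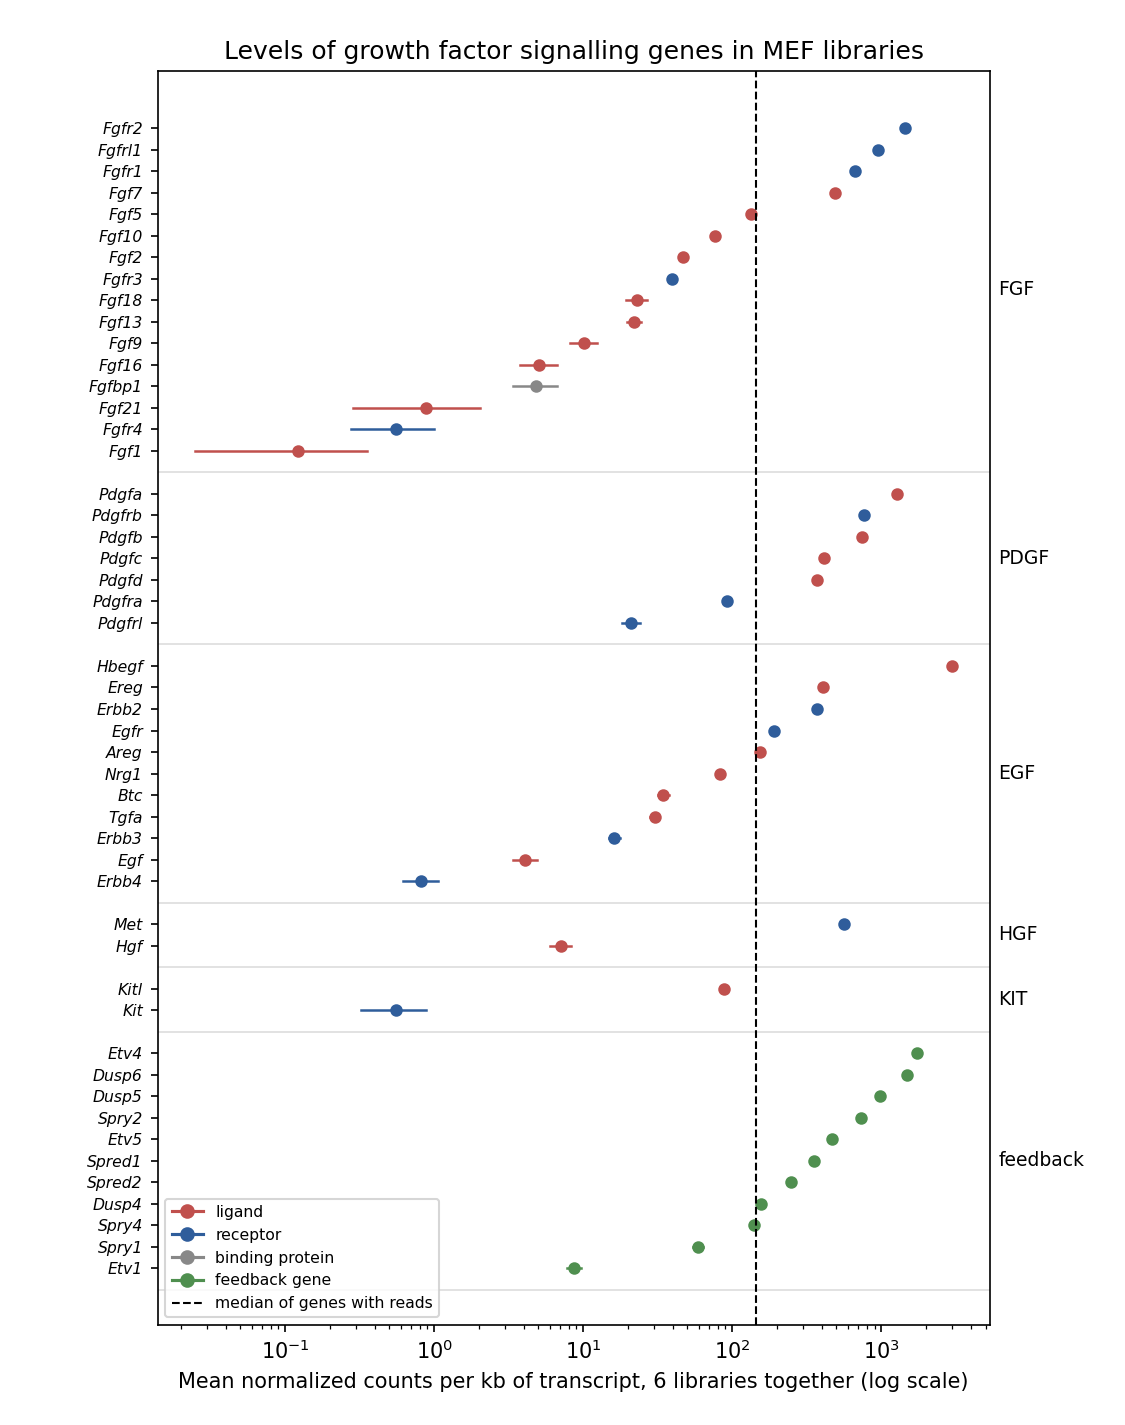
Level of each of the 49 members in mean normalized counts per kb of transcript over the 6 libraries (horizontal axis, log scale), by family and coloured by role. Points are the authors' means per kb, bars the 95% Poisson intervals (hidden behind the point where narrow), and the dashed line the median of 145 of genes with reads. *Hbegf* leads at 2956, and *Fgf1* is lowest at 0.121.

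Of the 10 genes listed as FGF ligands, the intracellular *Fgf13* included, 7 reached a mean of 10, and *Fgf7* alone passed the median gene per kb. *Fgf7*, keratinocyte growth factor, which mesenchyme makes for neighbouring epithelium, lies on chromosome 2 from 126034658 to 126091185 and had a mean of 1300.2 normalized counts (1270 to 1331), or 487 per kb. *Fgf5*, known as a regulator of the hair cycle, had 333 normalized counts (317 to 348). *Fgf10*, the mesenchymal signal for limb and lung buds, had 314 (299.7 to 329.6). The intervals of *Fgf5* and *Fgf10* overlap on the count scale, and their order per kb depends on the length, with 133 for *Fgf5* against 76.4 for *Fgf10* by the whole transcript and 420 against 501 by the coding length. *Fgf2*, basic FGF, had 278 normalized counts, or 46.5 per kb.

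The other FGF ligands rested on few reads. For these the reads in each library could be solved from the mean, because a mean this low can be built from whole reads in 6 libraries in exactly 1 way. Libraries are lettered A to F by falling size factor, and their genotype was not assigned. *Fgf13*, an intracellular FGF homologue that binds sodium channels, had 57, 45, 66, 54, 44 and 63 reads in libraries A to F. After division by the size factors its highest library was F, with 69.3 normalized counts, and its lowest B, with 42.8. This was the narrowest relative range among these ligands. *Fgf18*, a skeletal growth signal, had 16, 21, 29, 11, 26 and 43 reads. *Fgf9*, which acts in the gonad, lung and skeleton, had 0, 15, 36, 7, 14 and 23 reads, so it was absent from library A and highest in library C. *Fgf16*, X-linked like *Fgf13*, had 17, 12, 11, 2, 3 and 7 reads, with the lowest values in libraries D and E. *Fgf21*, a metabolic hormone of the liver, had 5 reads in all. *Fgf1*, acidic FGF, had 3 reads in all, 1 in library B and 2 in library C, which puts it at the floor of 3 reads. Neither gene can be ranked against the other at this depth, since their intervals, 0.271 to 1.94 and 0.0996 to 1.41 normalized counts, overlap.

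Receptors of the FGF family separated into an abundant and a scarce set. *Fgfr2* on chromosome 7 from 130162451 to 130266808 had the highest mean, 4819 normalized counts (4760 to 4877), or 1450.1 per kb. *Fgfrl1*, which lacks the kinase domain, followed per kb with 944 (mean 2200), and *Fgfr1*, the usual FGF receptor of mesenchyme, with 667 (mean 3351). All 3 were above the median gene per kb. *Fgfr3*, which restrains growth of cartilage, was far lower, with a mean of 168 and 39.6 per kb. *Fgfr4* had only 11 reads, split as 2, 1, 1, 3, 0 and 4 over libraries A to F, and a mean of 1.86 (0.926 to 3.32). *Fgfbp1*, a carrier that releases FGFs from the matrix, had 36 reads (10, 4, 3, 5, 10 and 4). The 3 RefSeq transcripts of *Fgfr2* had means of 4819, 4611 and 4584, so most of its reads fell on exons that the transcripts share. Transcripts that share exons share reads in this table: 2962 of the 7473 genes with several transcripts with reads have some with identical means. Splice forms with different ligand preference can therefore not be read from these values.

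**Figure D3:**
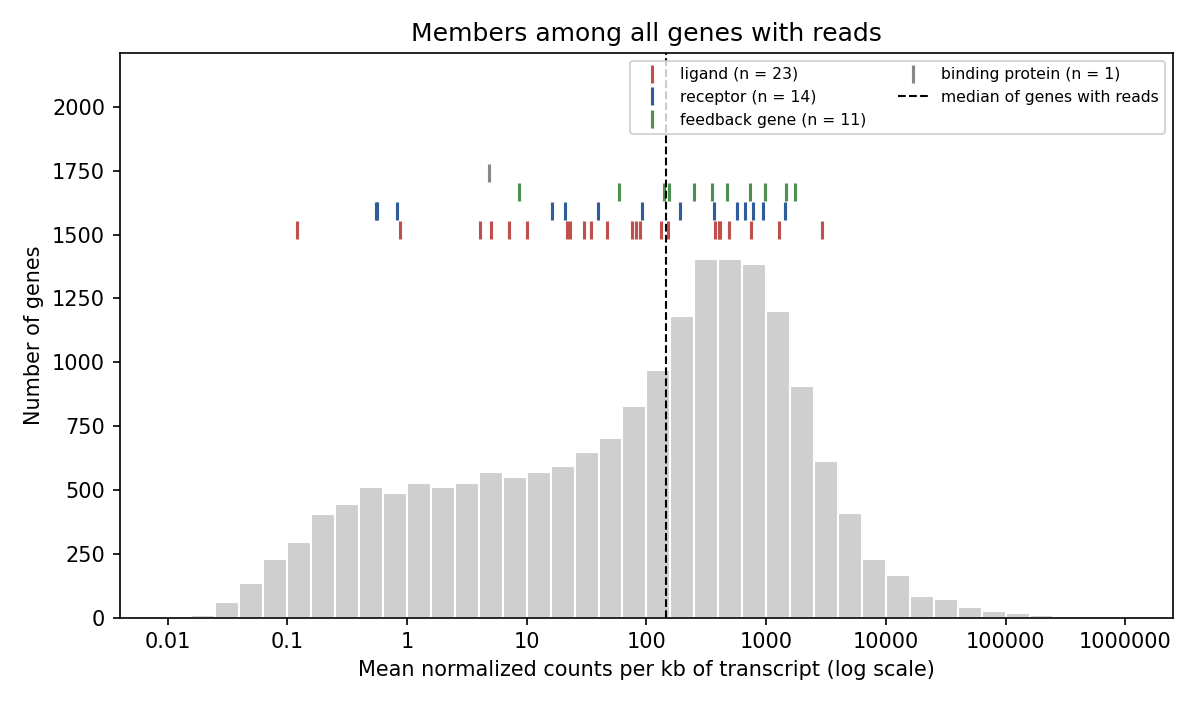
Distribution of the level of all genes with reads and a known length (grey bars, number of genes) in mean normalized counts per kb of transcript (horizontal axis, log scale). Ticks above the bars are the 49 members by role, and the dashed line is the gene median of 145. The ligands spread from 0.121 to 2956 and the receptors from 0.551 to 1450.

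All 7 PDGF family members had a mean of at least 10, and all 4 ligands exceeded 1000 normalized counts. *Pdgfa* led with 2630 (2587 to 2673) and 1275 per kb, followed by *Pdgfb* with 2180 and 740.5 per kb. *Pdgfc* and *Pdgfd*, the ligands that need proteolytic activation, had 1462 and 1162 normalized counts, or 415 and 371 per kb. All 4 ligands were thus above the gene median of 145 per kb. *Pdgfrb*, the receptor of the B and D chains and a pericyte and fibroblast marker, lies on chromosome 18 from 61045127 to 61085067 and had 4160 normalized counts (4106 to 4214), or 769 per kb. *Pdgfra*, the receptor that also takes the A and C chains, lies on chromosome 5 from 75151322 to 75198206 and had 628 (607 to 650), or 91.9 per kb. The beta receptor was thus above and the alpha receptor below the median gene, and by the coding length the beta receptor was again the higher, with 1262 against 192 per kb. *Pdgfrl*, a receptor-like protein without a kinase domain, had 35, 26, 46, 34, 28 and 27 reads in libraries A to F. The 5 *Pdgfra* transcripts had means of 628, 625, 294, 283 and 172 normalized counts.

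All 7 ligands of the EGF family had a mean of at least 10, with levels from 4.08 to 2956 normalized counts per kb. *Hbegf*, the heparin-binding ligand that is shed from the membrane, lies on chromosome 18 from 36504927 to 36515805. Its mean of 7020 normalized counts (6950 to 7091) and its 2956 per kb were the highest of the 49 members, at percentile 92.4 of genes with reads. *Ereg*, which encodes epiregulin, had 1664 normalized counts (403 per kb), and its chromosome 5 neighbour *Areg*, amphiregulin, had 185 (153 per kb). *Areg* and *Ereg*, with *Btc*, lie between 91074617 and 91402994 on chromosome 5, but their levels per kb were 153, 403 and 34.5. *Nrg1*, a ligand of the ERBB3 and ERBB4 receptors, had 446 normalized counts on its leading transcript and between 87.4 and 315 on the 11 others. *Tgfa*, transforming growth factor alpha, had 136, or 30.1 per kb. *Egf* itself was scarce, with 9, 32, 33, 20, 18 and 6 reads in libraries A to F and a mean of 19.4 (16.1 to 23.3). Its lowest values were in libraries A and F. *Btc*, betacellulin, had 8, 6, 237, 8, 182 and 136 reads, the widest range in reads of the members solved. Libraries A, B and D held 6 to 8 of its reads and libraries C, E and F 136 to 237, so its mean of 99.3 describes none of the 6. These reads are the only solution at the tolerance used, but with a tolerance 3 times wider there were 2.

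Of the 4 EGF family receptors, 2 were above the median gene per kb and 2 were far below it. *Egfr* had 1936 normalized counts (1899 to 1973) and *Erbb2*, the receptor without a ligand of its own, had 1844 (1808 to 1880). Per kb *Erbb2* had 368 and *Egfr*, whose transcript is 10208 bases long, had 190. By the coding length the order was turned, with 489 for *Erbb2* and 533 for *Egfr*. *Erbb3*, which lacks an active kinase, had 97.2 normalized counts, or 16.2 per kb, and its reads had 2 possible solutions. *Erbb4*, the other neuregulin receptor, had 1, 1, 18, 4, 15 and 18 reads in libraries A to F and a mean of 9.87 (7.48 to 12.8). Most of its reads were in libraries C, E and F. A shorter *Egfr* transcript, with a coding length of 1965 bases against 3630, had a mean of 858. As its exons are partly those of the longer transcript, this value is no count of the short form alone.

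*Met* and *Hgf*, the receptor and its ligand, stood far apart. *Met* on chromosome 6 from 17463349 to 17573980 had 3852 normalized counts (3800 to 3904), or 566 per kb, above 70.6% of genes with reads. *Hgf*, a product of mesenchyme that acts on epithelium, lies on chromosome 5 from 16553495 to 16619439 and had a mean of 24.5 (20.8 to 28.8), or 7.07 per kb. Its reads were 50, 16, 18, 50, 7 and 11 in libraries A to F, so libraries A and D held 100 of the 152. In the other family with a single pair the order was turned. *Kitl*, which supports germ cells, melanocytes and blood progenitors, had 496 normalized counts (477 to 515), whereas its receptor *Kit* had 0, 5, 4, 0, 7 and 1 reads. *Kit* was without reads in libraries A and D, and its mean was 2.87 (1.67 to 4.60).

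**Figure D4:**
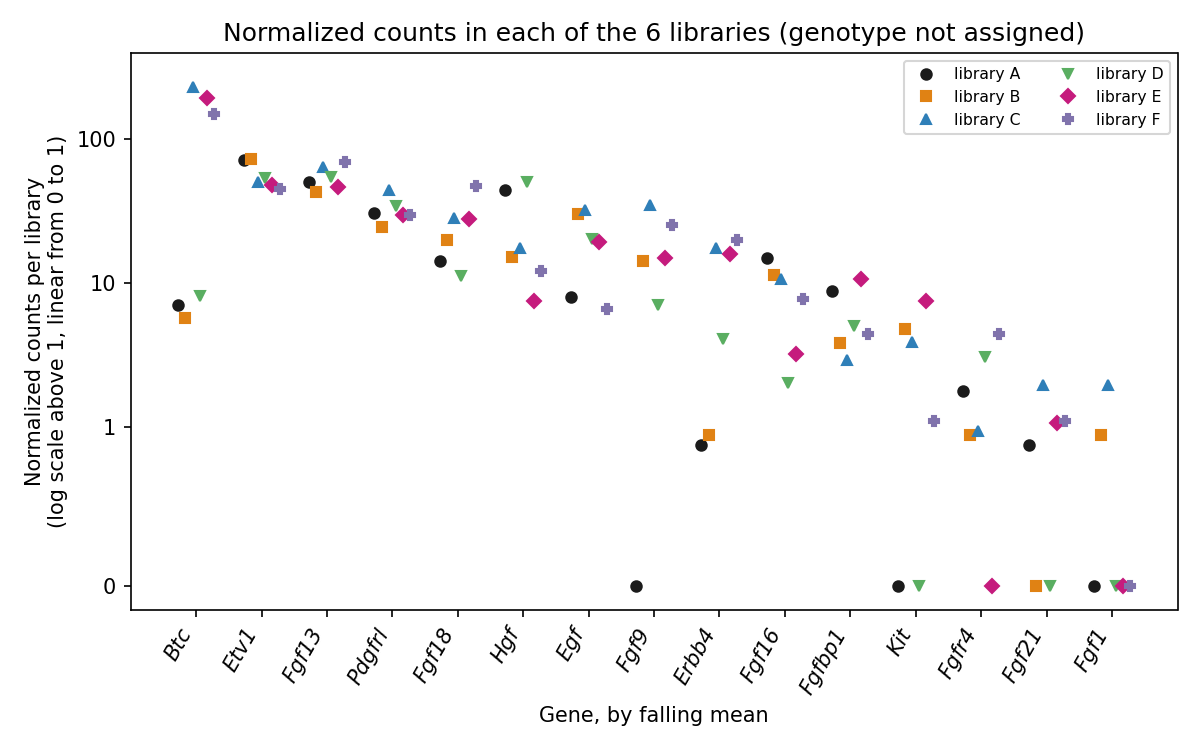
Normalized counts (vertical axis, log scale above 1 and linear below) of the 15 members whose reads could be solved, in each of the 6 libraries, whose genotype is not assigned. Genes are ordered by falling mean from *Btc*, at 99.3, to *Fgf1*, at 0.483, and for *Btc* the points of libraries C, E and F stand apart from those of A, B and D. With a tolerance 3 times wider *Btc* had 2 solutions, of which 1 is shown.

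Every one of the 11 feedback genes had a mean of at least 10, and 8 lay above the median gene per kb. *Etv4*, an ETS factor of the PEA3 group on chromosome 11 from 101769747 to 101785310, had 4159 normalized counts (4105 to 4214), or 1737 per kb. *Dusp6*, the phosphatase that removes phosphate from ERK in the cytoplasm, had 4125 (4071 to 4179), or 1475 per kb. These 2 genes and *Dusp5*, a nuclear ERK phosphatase with 2432 normalized counts and 983 per kb, were above the 75th percentile of genes. *Dusp4*, also nuclear, was lower, with 424 and 155 per kb. *Spry2* was the highest Sprouty gene, with 1533 normalized counts and 735 per kb, against 661 and 139 for *Spry4* and 144 and 58.9 for *Spry1*. The 2 Spred genes among these 11, whose products block RAS activation, were above the gene median. *Spred1* had 2124 normalized counts, or 353 per kb, and *Spred2* 707, or 248 per kb. *Spred1* has a shorter transcript with a mean of 459. *Etv5* had 1864 normalized counts and 468 per kb. *Etv1*, the last of the PEA3 group, was the lowest feedback gene, with 82, 77, 52, 53, 45 and 41 reads in libraries A to F. Its libraries A and B were highest and F lowest, and the mean was 57.2 (51.4 to 63.5), or 8.70 per kb.

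Other genes of the pathway were taken from a fixed list. Those that carry the signal inside the cell all passed a mean of 10: 11 of 11 adaptors and linked proteins, 8 of 8 RAS and RAF genes with their regulators, 4 of 4 MEK and ERK genes and 6 of 6 genes of PI3K, AKT and PLC. Their median levels per kb were 185, 971, 2391 and 476. The highest of each group were *Ptpn11*, a phosphatase that promotes RAS signalling, with 14442 normalized counts, *Hras* with 10709, the MEK gene *Map2k2* with 10764 and *Akt1* with 38524. The lowest were the adaptor *Frs3*, *Braf* with 1571, *Map2k1* with 4090 and the PI3K subunit *Pik3r1* with 1284. Of 19 further ligands, receptors and binding proteins of these families, 7 reached 10, and *Fgf3*, *Fgf4*, *Fgf6* and *Nrg3* were listed at 0. The highest of them was *Fgfbp3*, another FGF carrier, with 204 normalized counts. Of 6 coreceptors and HGF activators or their inhibitors, 3 reached 10. *Kl*, a coreceptor of endocrine FGFs, was listed at 0, and *Spint2*, an inhibitor of HGF activation, was highest with 196. Of 11 further feedback genes, all reached 10, from *Spry3* at 17.0 to *Dusp7* at 4446.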

How the data were processed

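RNA of 6 MEF libraries, 3 WT and 3 *Anp32e* null, was prepared with a stranded total RNA kit and sequenced. Per the labels and the paper's methods, the authors used RNA-STAR for alignment to mm10, featureCounts of Subread for counts per RefSeq transcript, and DESeq2. The paper's methods leave genes of the sex chromosomes out of its differential expression analysis. The column of means still holds the X-linked *Fgf13* and *Fgf16*. The deposited signal used here is a column of means: counts of each transcript, scaled by the size factor of the library in DESeq2, averaged by the authors across all 6. The table's other columns hold the authors' comparison of the groups (log2 fold change, standard error, Wald statistic, p-value and adjusted p-value) and were not used. Total counts per library are therefore unknown, no test between genotypes was made, and the precision given is that of counting.

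Of 42361 transcripts, 42203 were matched to RefSeq genes of GRCm38.p6 and 158 were not. Lengths are exonic lengths of the matching GENCODE M21 transcript on GRCm38, the build called mm10, and cover 97.3% of genes with reads. For 5 members the length and mean per kb are those of another transcript with at least 99.7% of the top mean. The 6 lowest means above 0 are the worth of 1 read in each library, from which size factors were computed. All 4690 distinct means under 20 had exactly 1 whole-read solution. Members with any transcript under a mean of 100, of which there are 17, were solved the same way. For 15 of them the transcript that stands for the gene had exactly 1 solution. That of *Erbb3* had 2, and that of *Nrg1*, with a mean of 446, lay above 100 and was not solved. In simulated data, the solver recovered 689 of 689 means under 60 and 10 of 10 from 60 to 100. For other members the reads used for intervals are the lowest number that the size factors allow.

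Members and lists were chosen with earlier results of these data known. All 49 members are reported, with values in full for every receptor, for the highest per kb of each family and role and for members with solved reads. Other pathway genes are named for the highest and lowest of each list. Alternatives were another minimum mean, another transcript, coding transcripts only, coding length, another floor, another background, a wider tolerance and leaving out each library for members with solved reads. Python 3.11.15 with numpy 2.4.6, pandas 2.3.3, scipy 1.17.1 and matplotlib 3.10.9 was used.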

Additional observations from a re-analysis of the deposited data

How the results depend on the processing

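The number of members with a mean of at least 10, which was 42, was also 42 with the second highest transcript of each gene and with coding transcripts only. It was 47 at a minimum of 1 and 37 at a minimum of 50. With the coding length in place of the whole transcript, the median level of the members moved from 133 to 489 normalized counts per kb, and *Hbegf* still led. The counts stayed those of the whole transcript, so the shorter length could not lower a level, and the gene median was not recomputed. The rank of 11 members then moved by over 5 places. The longest transcript in place of the leading one moved *Fgfr2* outside its counting interval, to 1063 per kb, and no other member. *Fgfr2* then ranked after *Pdgfa*. With a floor of 3 reads in each library, 4 members were at or under it, in place of 1. Against genes with a mean of at least 10, 19 members were above the median gene, in place of 23. With a tolerance 3 times wider, 14 members had 1 solution in place of 15, the member lost being *Btc*, which then had 2. For the 15 members with solved reads, each of the 6 libraries was left out in turn, an alternative chosen after seeing the data. *Erbb4* then ranged from 7.89 to 11.7 and crossed the minimum of 10, and *Fgf1*, with 3 reads, had a mean of 0.190 without library C in place of 0.483. The other 13 means stayed on their side of 10 and within 1.5 times of the value over all libraries. *Btc* ranged from 73.0 without library C to 118 without library B, and *Hgf* from 19.3 to 27.9. For the other members no library could be left out of the mean. No paired analysis was possible because the table's mean carries no replicate numbers and the solved libraries have none. Depth limits the members with few reads, and for members with a mean over 100 the spread between libraries is unknown.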

Other observations

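The reads of some members fell into separate sets of libraries. The labels place none of libraries A to F in a genotype, so these are values of 6 unassigned samples, and no test was made. *Btc* had 8, 6 and 8 reads in libraries A, B and D and 237, 182 and 136 in C, E and F. With a tolerance 3 times wider its reads had 2 solutions, of which this is 1. *Erbb4* had 1, 1 and 4 reads in A, B and D and 18, 15 and 18 in C, E and F. The same 3 libraries thus held the higher values of *Btc* and of *Erbb4*, a receptor that its product can bind. The split was not particular to this pair. *Fgf18* had 16, 21 and 11 reads in A, B and D and 29, 26 and 43 in C, E and F. *Fgf9* was also lower in A, B and D in normalized counts, with B close to E. A link between these genes was not tested. *Hgf* divided otherwise, with 50 reads each in A and D and between 7 and 18 in the rest. *Etv1* had 82 and 77 reads in A and B and between 41 and 53 in the rest. In normalized counts its 3 highest libraries were A, B and D, with 72.5, 73.2 and 53.7, against 50.6, 48.1 and 45.1 in C, E and F. These are the sets of libraries seen for *Btc* and *Erbb4*, in the other direction and with D close to C.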
